A study of Mus musculus with 10 samples.

Results

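The genes examined here encode the ligands and receptors of 4 axon guidance systems, Slit and Robo, netrin and Unc5, ephrin and Eph, and semaphorin with its plexin and neuropilin receptors. They were matched by gene name, and 68 of the 39273 genes in the table of mouse organoid and kidney libraries matched. Of these, 35 encode ligands and 33 encode receptors, with 7 genes in the Slit-Robo system, 8 in the netrin system, 22 in the ephrin-Eph system and 31 in the semaphorin system. Guidance molecules were named for steering growing axons, but epithelia use them as well. Ephrins and Eph receptors sort neighbouring cells into separate domains, and many semaphorins, Slits and netrins attract or repel cells and vessels. In the early kidney, Slit2 and Robo2 keep the nephrogenic signal that draws out the ureteric bud (UB) to a single site, and semaphorins and plexins regulate how often the bud branches.

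RNA-seq had been performed on 5 groups of 2 libraries each. UB organoids are cultures of the epithelial bud that forms the collecting system, grown in a UB medium from buds that, per the methods, were dissected by hand from embryonic kidneys of Wnt11-RFP mice (embryonic day 11 in the labels), and collected after 5, 10 and 20 days. Collecting duct (CD) organoids had been made from UB organoids of day 10 in a differentiation medium that held aldosterone, vasopressin, FGF9, DAPT, PD0325901 and Y27632. Adult mouse CD cells (mCD) were taken fresh from Hoxb7-Venus kidneys at 2 months of age by fluorescence sorting, in which a reporter marks the UB lineage. For all 10 libraries the labels give C57BL/6 x Swiss Webster as background and Wnt11-RFP +/- as genotype, and they give the adult cells an embryonic age and call them organoids, which conflicts with the design text and the methods. The labels do not say whether the 2 libraries of a group came from separate cultures or animals, so p-values measure only the spread between these libraries, which may be technical.

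Total counts ranged from 11913613 to 24536676 per library and were lowest in CD organoids. They were 22858971 or more in the libraries of days 5 and 10 and 16759872 or less in the other 6. Any batch between these 2 sets of libraries cannot be told apart from the groups and was not tested. The labelled identities were checked against marker lists. The summed level of 5 UB tip markers was 1995 to 3748 CPM (counts scaled to each library's total) in the UB organoids, 364 to 384 CPM in CD organoids and 96.7 to 114 CPM in adult mCD. Markers of intercalated cells summed to at most 4.89 CPM in UB organoids and to 1185 to 1274 CPM in CD organoids. Adult mCD libraries also held markers of other kidney cells, with 4395 to 5241 CPM over 8 proximal tubule genes, 3274 to 3466 CPM over 2 loop of Henle genes and 833 to 834 CPM over 8 endothelial genes, all of these genes being above 3 counts. In the organoids the same endothelial genes summed to between 1.02 and 3.65 CPM. Y-linked genes summed to at most 0.875 CPM in UB organoids of days 5 and 10 and to between 229.8 and 295 CPM in the other 6 libraries, so that the sex of the starting material cannot be told apart from the group when day 20, CD organoids or adult mCD are compared with day 5 or day 10. In bulk libraries, fewer cells of a type and less RNA per cell cannot be told apart.

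Of the 68 genes, 67 had enough counts to be tested, Ntn5 being the exception, with 3 counts or fewer in every library. Calls required more than a 4-fold change together with an adjusted p no higher than 0.01 in the edgeR quasi-likelihood test, with Benjamini-Hochberg adjustment over all tested genes of the table. In at least 1 of 7 comparisons 40 of the genes were called, and 27 were tested and called in none. The matching share over all genes is not given here, so the 40 cannot be set against a background. The sum over all 68 genes was 4990 and 5423 CPM at day 5, 5612 and 5478 CPM at day 10, 4869 and 4767 CPM at day 20, 4306 and 4388 CPM in CD organoids, and 5101 and 4842 CPM in adult mCD. CD organoids had the lowest sums and did not overlap with any other group.

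**Figure D1:**
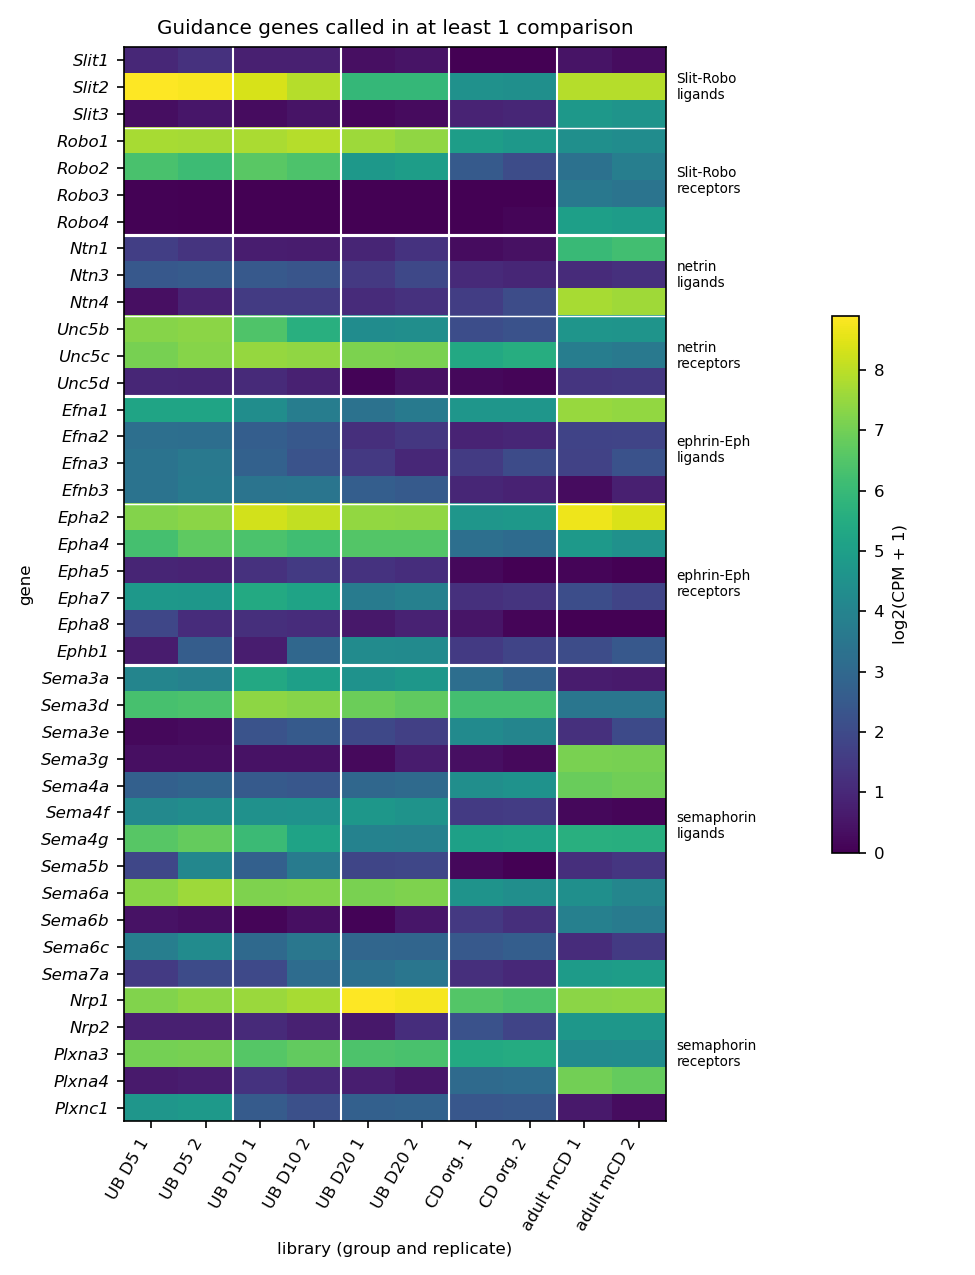
The map shows log2(CPM + 1) of the 40 guidance genes called in at least 1 comparison (rows, by system and role) in the 10 libraries (columns). Slit2, Robo1, Robo2, Unc5b, Epha4 and Epha7 are darker in CD organoids than in UB organoids, and Robo3, Robo4, Ntn4 and Sema3g are bright only in the 2 adult libraries.

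Levels were compared between genes per length, in the deposited RPKM. Efnb2, a transmembrane ephrin, had the highest RPKM of all 68 genes in each organoid group, with 43.6 ± 6.3 (SD, n = 2) at day 5, 63.7 ± 4.7 at day 10, 42.5 ± 1.4 at day 20 and 56.3 ± 3.4 in CD organoids. At day 5 the next highest, Plxnb2 with 38.9 ± 0.98, lay within the spread of Efnb2. In adult mCD the highest was Plxnb2, a receptor of class 4 semaphorins, with 66.3 ± 3.8 RPKM, followed by the Eph receptor Epha2 with 63.3 ± 8.8, a difference smaller than the spread of Epha2. Plxnb2 was also the second highest in CD organoids, with 55.0 ± 0.91 RPKM, which lay within the spread of Efnb2. The deposited gene length exceeds the merged exon length, by a median of 1.92 times over the genes, and genes with many transcripts are therefore understated. With CPM per kb of merged exons, Plxnb2 ranked first at day 5, in CD organoids and in adult mCD, and Sema3c ranked first at day 20.

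The gene with the highest RPKM of its family is given here, with the cases in which CPM per kb of merged exons gave another gene. It was Plxna1 among class A plexins in the organoids, from 16.7 ± 0.29 to 23.0 ± 0.083 RPKM, while in adult mCD Plxna1 and Plxna4, at 8.49 ± 0.63 and 8.33 RPKM, differed by less than the spread. It was Nrp1 among neuropilins, from 6.92 ± 0.52 in CD organoids to 36.5 ± 1.9 at day 20. Among ephrin-A genes it was Efna4 in the organoids, at 18.0 ± 1.7 to 22.0 ± 1.3 RPKM, and Efna1 in adult mCD, at 40.2 ± 1.6. Among EphB receptors it was Ephb4 at day 5, with 7.20 ± 0.82 RPKM, and Ephb6 in CD organoids, with 14.1 ± 0.032. In the other 3 groups Ephb6 led by RPKM but Ephb4 by CPM per kb, for example with 23.1 against 8.67 CPM per kb in adult mCD. Among EphA receptors it was Epha2 except in CD organoids, where Epha1 led with 6.88 ± 0.027 RPKM. Sema3c led class 3 semaphorins in all organoid groups, except that Sema3f was just higher by CPM per kb at day 5, and reached 36.5 ± 1.8 RPKM in CD organoids, and Sema3g led them in adult mCD with 30.1 ± 0.34. At day 5 Sema4d and Sema4b, at 5.46 ± 0.43 and 5.43 RPKM, differed by less than the spread, with Sema4c highest by CPM per kb. Sema4b led class 4 in the other groups, with up to 16.3 ± 0.99 in adult mCD. Sema5a led class 5 throughout, from 3.44 ± 0.24 RPKM at day 5 to 11.4 ± 0.56 at day 20. Sema6a led class 6 in the organoids, with at most 5.26 ± 0.78 RPKM, and Sema6b in adult mCD with 1.87 ± 0.17. Plxnd1, the only class D plexin, had between 1.90 ± 0.41 RPKM at day 20 and 8.46 ± 0.42 in adult mCD. Netrins were low in all organoid groups, where none had more than 0.641 ± 0.20 RPKM, whereas Ntn4 had 49.0 ± 3.3 RPKM in adult mCD. Slit2 led the Slits in the organoids, from 6.46 ± 0.17 RPKM at day 5 to 0.298 ± 0.0099 in CD organoids. In adult mCD Slit3 and Slit2, at 3.34 ± 0.23 and 3.30 RPKM, differed by less than the spread, and Slit2 was the higher by CPM per kb, with 9.35 against 4.07. Robo1 led the Robo receptors in the organoids, with at most 8.24 ± 0.44 RPKM, and Robo4 in adult mCD with 1.29 ± 0.059. Unc5b led its family at day 5, with 10.6 ± 0.45 RPKM, and in adult mCD, with 1.57 ± 0.044, and Unc5c at day 20 and in CD organoids, while at day 10 Unc5c led by RPKM and Unc5b by CPM per kb.

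CD organoids were then compared with the UB organoids of day 10, the stage from which they are derived. Per the methods, CD organoids were cultured for longer, so time in culture and medium cannot be told apart here. Slit2, Robo1, Robo2, Unc5b, Epha2, Epha4 and Epha7 were each lower in CD organoids by more than 8-fold. Other genes of these families were not called, among them Slit3, Epha1, Unc5a, Robo3 and Robo4. Slit3, Unc5a, Robo3 and Robo4 had few or no counts at day 10, so a fall could hardly be called for them. Of 67 genes tested, 22 were called, which is 32.8% against 10.7% of all genes. Of these, 19 were lower and 3 were higher in CD organoids, where 5.71% and 4.96% of all genes were called lower and higher. The median log2 fold change was -0.79 over the 67 genes and -0.15 over all genes. By role, 10 of 34 ligands and 9 of 33 receptors were called lower. By system, 4 of 7 Slit-Robo genes, 4 of 7 netrin genes, 6 of 22 ephrin-Eph genes and 5 of 31 semaphorin genes were called lower, and all 3 genes called higher were in the semaphorin system. The summed UB tip markers fell over the same groups, as given above. Of these, Sox9 changed little, from 291 and 345 CPM at day 10 to 234 and 256 CPM in CD organoids. The 7 stroma markers summed to 19.2 to 25.1 CPM at day 10 and to 125 to 239 CPM in CD organoids. Col1a1, Col3a1, Dcn and Pdgfra rose, while Pdgfrb went from 4.84 and 4.45 CPM to 3.27 and 1.68 CPM. Foxd1 and Lum were at 0.498 CPM or less in both groups. Mitochondrial genes took 1.28% and 1.58% of counts at day 10 and 3.16% and 3.19% in CD organoids. The part of these differences in the results was not tested.

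**Figure D2:**
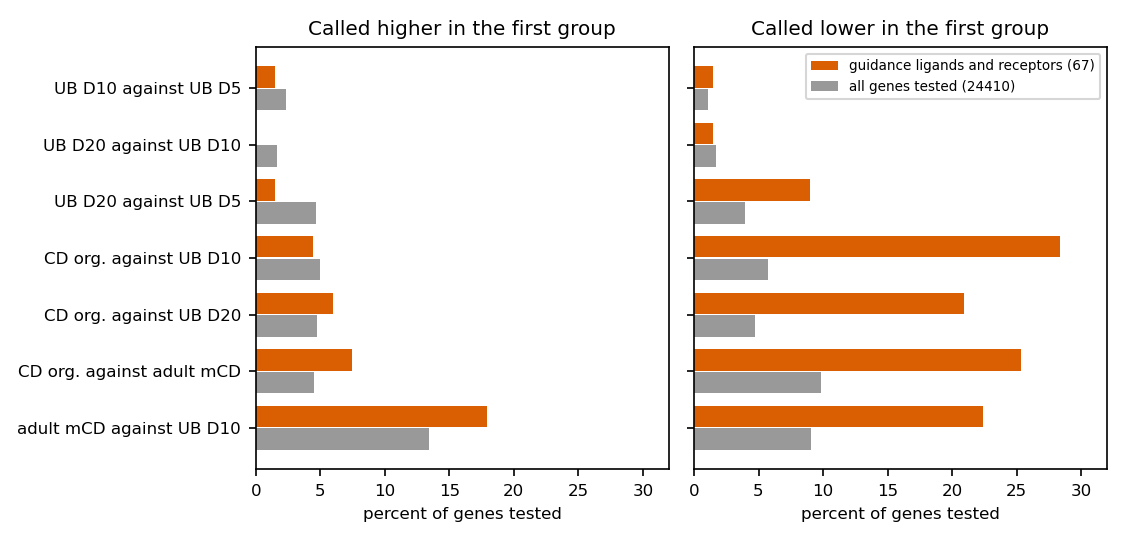
Bars give the percent of tested genes called higher (left) or lower (right) in the first-named group of each comparison, for the 67 guidance genes and for all tested genes, with axes from 0. Guidance genes were called lower in CD organoids more often than all genes in each of the 3 comparisons of that group, for example 19 of 67 against 5.71% for UB organoids of day 10.

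Slit2, the secreted ligand of Robo receptors, fell stepwise. Its level was 476 and 449 CPM at day 5, 328 and 241 CPM at day 10, 59.7 and 60.2 CPM at day 20, 21.6 and 20.6 CPM in CD organoids, and 239 and 237 CPM in adult mCD. The 4 organoid groups did not overlap, and the adult libraries lay just under those of day 10. The log2 fold change in CD organoids against day 10 was -3.75 ± 0.13 (SE, edgeR adjusted p = 6.31e-11). Slit2 was also the only guidance gene called between day 20 and day 10, at -2.24 ± 0.12 (edgeR adjusted p = 2.41e-08), where without replicate 1 of day 10 the change was -1.98 and no longer more than 4-fold. Adult mCD differed from day 10 by -0.26 ± 0.11 (edgeR adjusted p = 0.0568), which did not pass the threshold.

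The promoters below are shown because these genes stand for the main patterns, Slit2 for the loss in CD organoids, Epha2 for a loss in CD organoids alone, and Robo4 for genes at or near 0 outside adult mCD. They are taken from RefSeq (GRCm38.p6), which held promoters of 59 of the 68 genes, each running from 250 bases before to 50 bases after the start, 5′ to 3′ on the strand of the gene, with CpG dinucleotides in capitals. They lie at chr5:47982905-47983204, chr4:141300971-141301270 and chr9:37401722-37402021, all on the plus strand.
Slit2: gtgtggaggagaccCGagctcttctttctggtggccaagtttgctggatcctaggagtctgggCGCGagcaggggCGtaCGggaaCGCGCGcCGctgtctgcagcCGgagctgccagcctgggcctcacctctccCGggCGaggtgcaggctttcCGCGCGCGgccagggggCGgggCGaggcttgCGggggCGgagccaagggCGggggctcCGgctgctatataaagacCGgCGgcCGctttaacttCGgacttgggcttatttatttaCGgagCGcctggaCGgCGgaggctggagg
Epha2: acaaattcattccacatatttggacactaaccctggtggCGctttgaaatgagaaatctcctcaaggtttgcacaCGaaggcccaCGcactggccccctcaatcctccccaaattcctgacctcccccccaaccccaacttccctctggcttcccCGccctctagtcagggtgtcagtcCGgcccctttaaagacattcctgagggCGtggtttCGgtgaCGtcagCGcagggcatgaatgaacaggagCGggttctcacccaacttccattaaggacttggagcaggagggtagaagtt
Robo4: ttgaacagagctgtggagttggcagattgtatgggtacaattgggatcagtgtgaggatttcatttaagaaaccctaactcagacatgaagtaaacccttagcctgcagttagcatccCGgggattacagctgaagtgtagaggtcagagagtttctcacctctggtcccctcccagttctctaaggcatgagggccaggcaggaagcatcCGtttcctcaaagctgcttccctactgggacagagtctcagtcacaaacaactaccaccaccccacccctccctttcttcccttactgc
The windows hold 30, 10 and 2 CpG dinucleotides, and 88.3%, 56.5% and 14.1% of 32851 promoters of the same length hold fewer. The median was 7 CpG over all promoters, 21 over the guidance genes, 23 over 15 of the genes lower in CD organoids than at day 10, and 18.8 over 10 of the genes higher in adult mCD than at day 10. The letters CCGGAA, the core of ETS factor sites, were found on either strand in the promoters of 7 of the 59 genes, against 14.9% of all promoters, and among the genes lower in CD organoids only in that of Unc5b. The AP-1 letters TGANTCA were found for 3 of 59 genes, Sema4c, Sema4d and Sema6b, against 7.81% of all promoters, and the TCF/LEF letters ATCAAAG for Nrp2 alone, against 3.73%. The 59 genes hold 75 promoters. A gene counted as matched if any of its promoters held the letters, and its CpG count is the mean over its promoters. The values over all promoters are per promoter, so the units differ. A match of letters is a description of the sequence and not a site of binding.

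Robo1 and Robo2, the receptors that bind Slit2, were both lower in CD organoids. Robo1 was at 214 and 206 CPM at day 5, 219 and 237 CPM at day 10, 191 and 171 CPM at day 20, 29.8 and 25.7 CPM in CD organoids, and 20.8 and 18.9 CPM in adult mCD. All 6 UB organoid libraries lay above 170 CPM and all 4 others below 30 CPM. The log2 fold change was -3.03 ± 0.095 on the log2 scale in CD organoids against day 10 (edgeR adjusted p = 2.68e-11) and -3.52 ± 0.099 in adult mCD (adjusted p = 2.60e-12). Robo2 was at 80.4 and 68.0 CPM at day 5, 98.4 and 85.0 CPM at day 10, 26.0 and 30.3 CPM at day 20, 4.70 and 3.21 CPM in CD organoids, and 9.04 and 12.9 CPM in adult mCD. Unlike Robo1, Robo2 was already lower at day 20 than at day 10, by 1.70 ± 0.15 on the log2 scale, which is under 4-fold, and it fell by 4.50 ± 0.19 in CD organoids against day 10 (edgeR adjusted p = 3.14e-10). Slit1 had no counts in CD organoids, which is at least 2.999-fold lower than at day 10, with 3 counts in a library as the limit. The bounds were 1.45-fold against day 20 and 1.27-fold against adult mCD. Slit1 was called lower in all 3 comparisons, though these bounds lie under 4-fold. The calls were lost under 1 of 15, 6 of 15 and 8 of 14 alternatives for day 10, day 20 and adult mCD.

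Of the netrin receptors, Unc5b, Unc5c and Unc5d were called lower in CD organoids than at day 10, the latter 2 with calls lost under 5 and 4 of 15 alternatives. Unc5b, also an endothelial guidance receptor, was at 156 and 162 CPM at day 5, 86.2 and 48.3 CPM at day 10, 18.9 and 20.1 CPM at day 20, 3.35 and 3.69 CPM in CD organoids, and 24.04 and 23.3 CPM in adult mCD. Its replicates at day 10 were far apart, but no organoid group overlapped with another, and the log2 fold change was -4.24 ± 0.26 in CD organoids against day 10 (edgeR adjusted p = 1.05e-08). Unc5c was at 134 and 154 CPM at day 5, 179 and 171 CPM at day 10, 140 and 137 CPM at day 20, 39.9 and 45.1 CPM in CD organoids, and 12.5 and 11.2 CPM in adult mCD. It fell by 2.04 ± 0.091 on the log2 scale in CD organoids (edgeR adjusted p = 5.33e-10), close to the 4-fold threshold, and was under it at -1.99 without replicate 1 of day 10 and at -1.95 without replicate 1 of CD organoids. Unc5a did not exceed 0.470 CPM in any library, and Dcc, the attractive netrin receptor, was highest at day 10 with a mean of 1.003 ± 0.129 CPM (SD, n = 2). The ligands Ntn1 and Ntn4 were at 3.21 CPM or less in all 8 organoid libraries, and Ntn3 fell from 4.64 and 4.05 CPM at day 10 to 1.07 and 0.962 CPM in CD organoids, a call lost under 5 of 15 alternatives.

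Among Eph receptors, 3 members of the EphA class with high levels in UB organoids were lower in CD organoids. Epha2 was at 152 and 163 CPM at day 5, 314 and 270.2 CPM at day 10, 175 and 172 CPM at day 20, 24.4 and 25.5 CPM in CD organoids, and 407 and 337 CPM in adult mCD. CD organoids stood alone at the low end, with -3.55 ± 0.11 on the log2 scale against day 10 (edgeR adjusted p = 2.73e-11) and -3.90 ± 0.11 against adult mCD (adjusted p = 1.09e-11). Epha4 was at 77.3 and 102 CPM at day 5, 81.8 and 71.8 CPM at day 10, 91.0 and 91.5 CPM at day 20, 8.40 and 7.54 CPM in CD organoids, and 26.7 and 21.4 CPM in adult mCD. It changed little among UB organoids and fell by 3.26 ± 0.16 in CD organoids against day 10 (edgeR adjusted p = 1.23e-09). Epha7 was at 25.9 and 25.1 CPM at day 5, 41.6 and 34.8 CPM at day 10, 12.1 and 13.7 CPM at day 20, 1.35 and 1.52 CPM in CD organoids, and 3.32 and 2.51 CPM in adult mCD. It was highest at day 10 and fell by 4.68 ± 0.19 in CD organoids against day 10 (edgeR adjusted p = 1.77e-10).

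**Figure D3:**
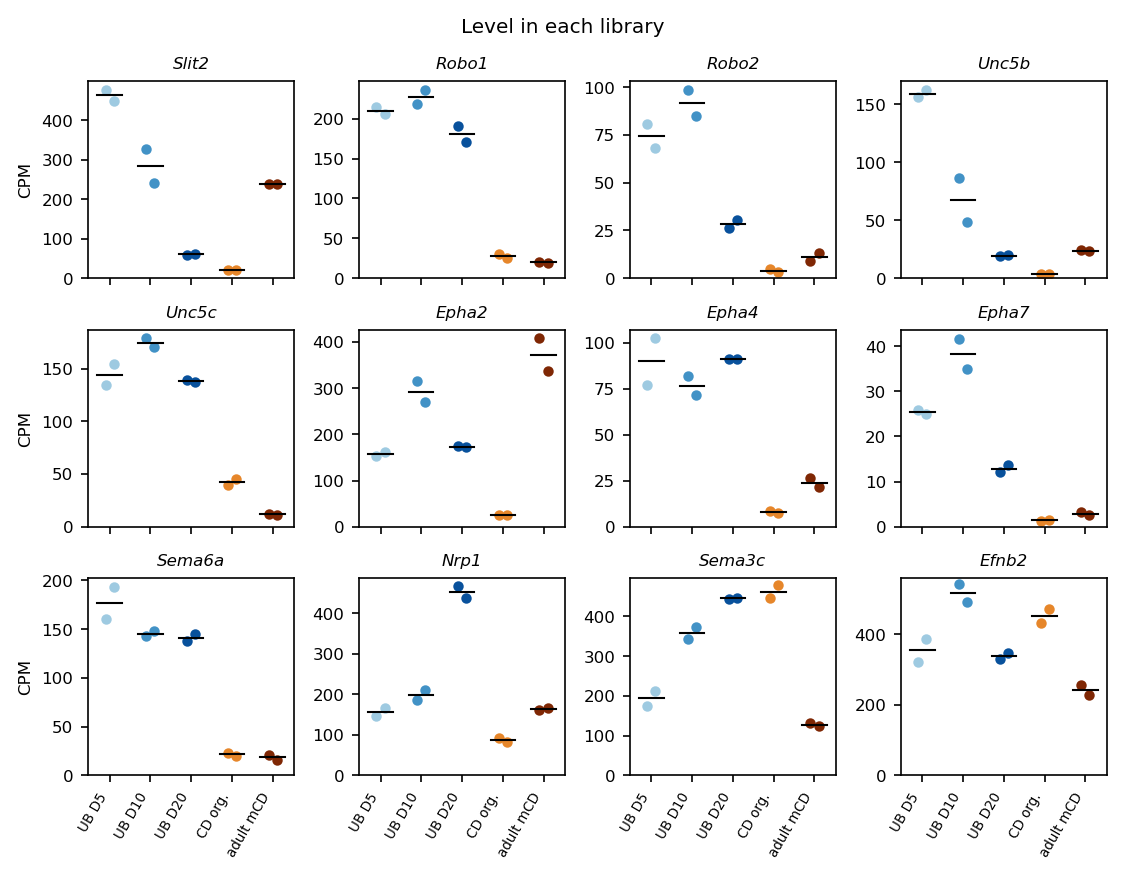
Each panel gives CPM in the 2 libraries of each group (points) and their mean (line) for 12 guidance genes, with axes from 0. Robo1, Sema6a and Epha4 drop between UB and CD organoids, Slit2, Robo2, Unc5b and Epha7 are already lower at day 20, and Sema3c and Efnb2 stay high in CD organoids.

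Most other ephrin-Eph genes changed less than these receptors, but Efnb3 and Epha5, both at low levels, fell by more than Epha4. Efnb2 was at 543 and 489.9 CPM at day 10 and 431 and 471 CPM in CD organoids, a difference of -0.19 ± 0.097 on the log2 scale that did not pass the test (edgeR adjusted p = 0.119). Ephb2, which binds ephrin-B ligands, fell from 119.5 and 138 CPM to 46.1 and 49.6 CPM, by 1.43 ± 0.097 on the log2 scale (adjusted p = 3.16e-08), and Ephb6, a receptor without kinase activity, rose from 47.9 and 49.3 CPM to 77.0 and 77.3 CPM, by 0.66 ± 0.084 (adjusted p = 1.53e-05). Neither reached 4-fold. Ephb4 was at 113 and 100.2 CPM at day 10 and 85.9 and 85.8 CPM in CD organoids. Of the low genes, Efnb3 was between 9.35 and 11.3 CPM at days 5 and 10 and at 0.926 and 0.802 CPM in CD organoids, Efna2 went from 5.35 and 4.45 CPM at day 10 to 0.854 and 0.962 CPM, and Epha5 from 86 counts to 2 counts over the libraries, a ratio of 21.7 with a 95% counting interval of 5.82 to 182. Without replicate 1 of CD organoids the log2 fold change of Epha5 moved from -3.70 to -4.99, and Epha8 was at 2.73 CPM or less in every library.

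Semaphorins changed in both directions. Sema6a, a transmembrane semaphorin, was at 160.1 and 193 CPM at day 5, 142 and 148 CPM at day 10, 138 and 145 CPM at day 20, 22.7 and 20.2 CPM in CD organoids, and 20.8 and 16.0 CPM in adult mCD. As for Robo1, UB organoids were high and both CD groups low, with -2.75 ± 0.12 on the log2 scale in CD organoids against day 10 (edgeR adjusted p = 4.76e-10). Sema4f was at 17.2 and 19.8 CPM at day 5, 21.9 and 22.4 CPM at day 10, 25.4 and 22.7 CPM at day 20, 1.85 and 2.00 CPM in CD organoids, and 0.151 and 0.0786 CPM in adult mCD. UB organoids did not overlap with the other groups, and the gene fell by 3.49 ± 0.17 in CD organoids against day 10 (adjusted p = 1.16e-09). Sema3a, which repels cells through neuropilin 1 and class A plexins, was at 15.7 and 14.0 CPM at day 5, 40.4 and 31.4 CPM at day 10, 22.33 and 24.98 CPM at day 20, 8.19 and 5.93 CPM in CD organoids, and 0.603 and 0.550 CPM in adult mCD. It was highest at day 10 in both libraries and fell by 2.33 ± 0.17 in CD organoids (edgeR adjusted p = 6.72e-08).

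Sema7a, a membrane-anchored semaphorin, was at 1.88 and 3.10 CPM at day 5, 2.93 and 7.88 CPM at day 10, 8.74 and 10.2 CPM at day 20, 1.28 and 1.04 CPM in CD organoids, and 28.7 and 30.1 CPM in adult mCD. Its replicates disagreed at day 10, and the log2 fold change of -2.17 in CD organoids became -1.27 without replicate 2 of day 10, under 4-fold. Sema5b showed a like disagreement, with 5.59 and 12.03 CPM at day 10 and 2 counts over both CD organoid libraries, a ratio of 119 with a 95% counting interval of 32.7 to 982, and its log2 fold change of -6.10 ranged from -7.40 to -5.40 as single libraries were left out.

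The 3 genes called higher in CD organoids than at day 10 were Sema4a, Plxna4 and Sema6b. Sema4a, a class 4 semaphorin, was at 5.55 and 6.33 CPM at day 5, 4.80 and 4.34 CPM at day 10, 6.80 and 7.40 CPM at day 20, 20.2 and 22.5 CPM in CD organoids, and 115 and 124 CPM in adult mCD. It rose by 2.21 ± 0.12 on the log2 scale (edgeR adjusted p = 3.34e-09), and adult mCD was higher still. Plxna4, a receptor of class 3 and class 6 semaphorins, was at 0.555 and 0.653 CPM at day 5, 1.47 and 1.02 CPM at day 10, 0.667 and 0.463 CPM at day 20, 7.40 and 7.94 CPM in CD organoids, and 127 and 109 CPM in adult mCD. It rose by 2.58 ± 0.19 (adjusted p = 6.42e-08). Sema6b was at 1.78 and 1.28 CPM in CD organoids against 0.0793 and 0.292 CPM at day 10, and its log2 fold change of 2.71 became 3.56 without replicate 2 of day 10 and lost its call without replicate 1 of CD organoids.

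Of the guidance genes, 18 passed in CD organoids against day 20, with 4 higher and 14 lower, which is 26.9% against 9.46% of all genes (4.74% higher and 4.73% lower). This comparison shares the CD organoid libraries with the comparison above, and both of its groups had Y-linked transcripts. The median log2 fold change was -0.31 over the guidance genes and 0.00 over all genes. Robo1 fell by 2.70 ± 0.095 (edgeR adjusted p = 1.03e-10), Epha4 by 3.51 ± 0.16 (adjusted p = 8.98e-10) and Epha2 by 2.80 ± 0.11 (adjusted p = 2.95e-10). Slit2, at -1.504 ± 0.129, and Unc5c, at -1.70 ± 0.091, were under 4-fold. Nrp1, the neuropilin that class 3 semaphorins bind, was at 147 and 165 CPM at day 5, 186 and 211 CPM at day 10, 467 and 437 CPM at day 20, 91.1 and 82.0 CPM in CD organoids, and 161 and 167 CPM in adult mCD. Its level peaked at day 20 and fell by 2.38 ± 0.092 in CD organoids against day 20 (edgeR adjusted p = 2.49e-10), and by 1.20 ± 0.090 against day 10, which is under 4-fold. Ephb1 was at 18.4 and 18.0 CPM at day 20 and 1.85 and 2.57 CPM in CD organoids, a call lost when any of these 4 libraries was left out. Sema6b had a log2 fold change of 2.37, which became 1.62 without replicate 1 and 3.81 without replicate 2 of day 20. Slit3, at 5 counts over the libraries of day 20 and 24 over those of CD organoids, gave a ratio of 5.72 with a 95% counting interval of 2.14 to 19.2.

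Sema3e, a class 3 semaphorin that binds Plxnd1 directly, was called higher in CD organoids than at day 20 and than in adult mCD. It was at 0.128 and 0.204 CPM at day 5, 3.81 and 4.67 CPM at day 10, 2.79 and 2.18 CPM at day 20, 18.0 and 15.4 CPM in CD organoids, and 1.36 and 2.99 CPM in adult mCD. CD organoids stood above every other library, with a log2 fold change of 2.72 ± 0.28 against day 20 (edgeR adjusted p = 2.37e-06) and 2.92 ± 0.29 against adult mCD (adjusted p = 1.49e-06), the latter being 3.55 without replicate 2 of adult mCD. Against day 10 the change of 1.97 ± 0.26 was just under 4-fold. Plxnd1, its receptor, was at 13.9 and 19.1 CPM at day 20 and 34.0 and 39.1 CPM in CD organoids and was not called.

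Among UB organoids few guidance genes passed the threshold. Between day 10 and day 5, 2 of 67 genes were called, or 2.99% against 3.41% of all genes (2.34% higher and 1.07% lower). Sema3e rose by 4.28 ± 0.42 on the log2 scale (edgeR adjusted p = 3.33e-06). Plxnc1, the receptor of Sema7a, was at 24.7 and 27.3 CPM at day 5, 4.92 and 3.54 CPM at day 10, 5.70 and 6.01 CPM at day 20, 4.27 and 4.65 CPM in CD organoids, and 0.528 and 0.236 CPM in adult mCD. Day 5 was above all other libraries, and the fall to day 10 was 2.61 ± 0.19 on the log2 scale (edgeR adjusted p = 4.12e-07). Between day 20 and day 10 the 1 gene called, Slit2, was 1.49% of those tested against 3.39% of all genes (1.73% lower). Without replicate 2 of day 10 the count was 5, with 4 lower and 1 higher. A looser rule took an adjusted p no higher than 0.05 at any fold. By it, 30 of the 67 genes were lower and 6 higher at day 20 than at day 10. These 36 were a larger share than the 29% of all genes, and the median log2 fold change was -0.43 against -0.10 for all genes. The same looser rule found 34 of 67 genes between day 10 and day 5, where 32.6% of all genes passed. Between day 20 and day 5 it found 44 of 67, where 45.1% passed. For CD organoids it gave 48 of 67 genes against day 10, where 47.2% of all genes passed. It gave 46 of 67 against day 20, where 42.2% passed, and 53 of 67 against adult mCD, where 49.8% passed. For adult mCD against day 10 it gave 53 of 67 genes, where 61.8% of all genes passed. In each comparison the share of the 67 genes was larger than that of all genes.

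Between day 20 and day 5, 7 genes were called, or 10.4% against 8.61% of all genes (4.68% higher and 3.93% lower), of which Sema3e was higher and Slit2, Unc5b, Sema4g, Efna2, Efna3 and Plxnc1 were lower. Scaled by library totals alone, 10 were called, 4 higher and 6 lower. Slit2 fell by 2.95 ± 0.12 (edgeR adjusted p = 1.04e-09) and Unc5b by 3.03 ± 0.20 (adjusted p = 5.94e-08). Sema4g, a class 4 semaphorin, was at 95.7 and 111 CPM at day 5, 65.4 and 34.9 CPM at day 10, 14.4 and 13.9 CPM at day 20, 32.5 and 33.9 CPM in CD organoids, and 47.5 and 47.0 CPM in adult mCD. Both libraries of day 20 were the lowest, and the log2 fold change against day 5 was -2.86 ± 0.22 (edgeR adjusted p = 2.44e-07), and CD organoids lay above day 20 by 1.22 ± 0.23, under 4-fold. The low ephrins Efna2 and Efna3 went from between 8.37 and 11.1 CPM at day 5 to between 0.991 and 1.76 CPM at day 20. Sema3c, which promotes migration of several cell types, went the other way, from 174 and 213 CPM at day 5 to 444 and 447 CPM at day 20, and was at 446 and 478 CPM in CD organoids. The rise to day 20 was 1.20 ± 0.093 on the log2 scale (edgeR adjusted p = 2.50e-07), and Sema5a rose likewise from 116 and 125 CPM to 404 and 380.3 CPM, by 1.70 ± 0.10 (adjusted p = 3.39e-08), both under 4-fold.

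Adult mCD were compared with UB organoids of day 10 and with CD organoids. Robo3 and Robo4, with at most 1 count in any organoid library, were present in both adult libraries, and Slit3, Ntn1, Ntn4 and Sema3g, which did not exceed 3.21 CPM in any organoid library, were above 23 CPM in both. Against day 10, 27 of 67 genes were called, or 40.3% against 22.5% of all genes, with 12 higher and 15 lower, where 13.4% and 9.1% of all genes were called higher and lower. Scaling by library totals alone moved the median log2 fold change of all genes in this comparison from -0.21 to -0.64. It also gave 30 calls among the guidance genes, 11 higher and 19 lower, and took the share of higher genes among all genes called from 59.6% to 44.5%. CD organoids differed from adult mCD in 22 genes, or 32.8% against 14.3% of all genes, with 5 higher and 17 lower in CD organoids, where 4.5% and 9.84% of all genes were called higher and lower. With library totals alone, 24 genes were called in this comparison, 8 higher and 16 lower, and the share of higher genes among all genes called went from 31.4% to 44.4%. The 5 genes higher in CD organoids were Plxnc1, Sema3a, Sema3d, Sema3e and Sema4f, with Sema3d at 2.85 ± 0.099 on the log2 scale (edgeR adjusted p = 4.13e-11) and Sema3a at 3.50 ± 0.31 (adjusted p = 2.84e-07). Without replicate 1 of adult mCD the value for Plxnc1 moved from 3.36 to 3.99, and without replicate 2 of CD organoids that of Robo4 moved from -8.37 to -9.20. The adult libraries alone held markers of endothelium, proximal tubule and loop of Henle at the levels given above, and mitochondrial genes took 9.64% and 9.86% of their counts, against at most 3.39% in the organoids. The part of these differences in the results for adult mCD was not tested.

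Robo4, the Robo receptor of endothelial cells, was at 0.0427 CPM in 1 library of day 5 and 0.0802 CPM in 1 of CD organoids, had no counts in the other 6 organoid libraries, and was at 31.1 and 29.4 CPM in adult mCD. This was at least 254-fold higher than at day 10, taking 3 counts in a library as the limit, and the ratio to CD organoids, from 787 counts against 1, was 803 with a 95% counting interval of 144 to 31752. Robo3 was at 10.9 and 9.82 CPM in adult mCD, at least 87.3-fold higher than at day 10 and at least 43.1-fold higher than in CD organoids, where it had no counts. The 2 genes are neighbours on chromosome 9, Robo4 on the plus strand at chr9:37401897-37415115 and Robo3 on the minus strand at chr9:37415669-37433246 (GRCm38), with 553 bases between their 3′ ends. Slit3 was at 0.256 and 0.449 CPM at day 5, 0.238 and 0.401 CPM at day 10, 0.121 and 0.198 CPM at day 20, 0.854 and 0.962 CPM in CD organoids, and 25.8 and 23.6 CPM in adult mCD. Only the adult libraries exceeded 1 CPM, with a log2 difference of 6.04 ± 0.28 against day 10 (edgeR adjusted p = 2.36e-10). Slit2 in adult mCD exceeded CD organoids, with -3.49 ± 0.13 in CD organoids (edgeR adjusted p = 8.36e-11).

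**Figure D4:**
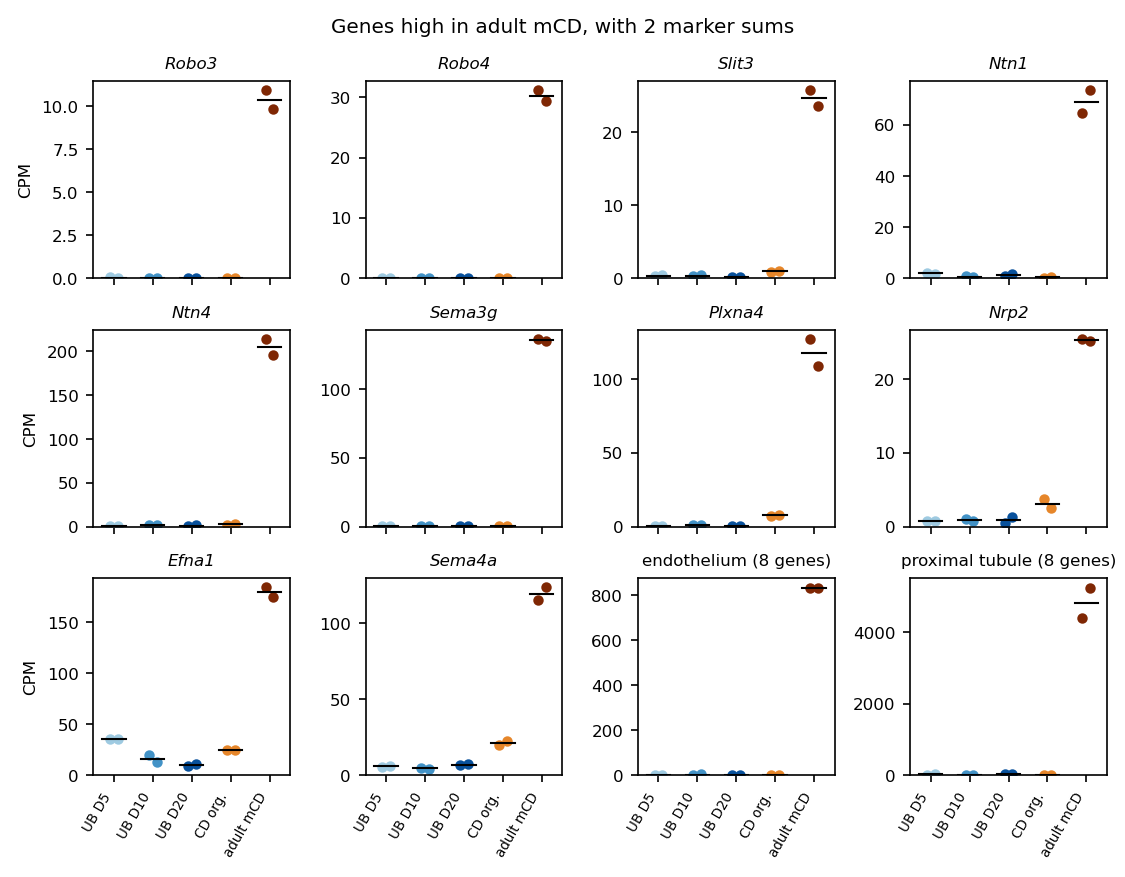
Each panel gives CPM in the 2 libraries of each group (points) and their mean (line), with axes from 0, for 10 guidance genes called higher in adult mCD than at day 10 and for the sums of 8 endothelial and 8 proximal tubule markers. Both sums, at 833 to 834 CPM and 4395 to 5241 CPM, are high in the same 2 libraries as the guidance genes.

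The netrin ligands Ntn1 and Ntn4 were higher in adult mCD than in any organoid library. Ntn1 was at 2.13 and 1.51 CPM at day 5, 0.634 and 0.583 CPM at day 10, 0.910 and 1.45 CPM at day 20, 0.214 and 0.321 CPM in CD organoids, and 64.5 and 73.6 CPM in adult mCD. Ntn4, a netrin of basement membranes, was at 0.299 and 0.816 CPM at day 5, 1.94 and 1.90 CPM at day 10, 1.15 and 1.39 CPM at day 20, 2.06 and 3.21 CPM in CD organoids, and 214 and 196 CPM in adult mCD. Their log2 differences from day 10 were 6.71 ± 0.22 for Ntn1 (edgeR adjusted p = 8.14e-12) and 6.70 ± 0.17 for Ntn4 (adjusted p = 1.33e-12). Of their receptors, Unc5c was lower in adult mCD than at day 10 by 3.88 ± 0.10 (adjusted p = 1.85e-12), Unc5b by 1.504 ± 0.197, which is under 4-fold, and Unc5d was at 1.73 CPM or less in every library. Unc5d had 48 counts over the libraries of day 10 and 3 over those of CD organoids, a ratio of 8.06 with a 95% counting interval of 2.60 to 40.4.

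Among semaphorin genes, Sema3g was at 0.299 and 0.286 CPM at day 5, 0.357 and 0.365 CPM at day 10, 0.182 and 0.595 CPM at day 20, 0.285 and 0.160 CPM in CD organoids, and 136 and 135 CPM in adult mCD. The difference from day 10 was 8.35 ± 0.19 on the log2 scale (edgeR adjusted p = 5.04e-13). Nrp2, the neuropilin to which Sema3g binds, was at 0.726 and 0.735 CPM at day 5, 1.11 and 0.766 CPM at day 10, 0.485 and 1.26 CPM at day 20, 3.70 and 2.57 CPM in CD organoids, and 25.5 and 25.1 CPM in adult mCD. The adult libraries were higher by 4.68 ± 0.29 than those of day 10 (adjusted p = 5.48e-09). Plxna4 was higher by 6.52 ± 0.17 (edgeR adjusted p = 1.06e-12) and Sema4a by 4.69 ± 0.12 (adjusted p = 9.49e-13). These 2 genes were also higher in CD organoids than at day 10, and CD organoids remained below adult mCD, by 3.94 ± 0.14 for Plxna4 and 2.48 ± 0.10 for Sema4a. Sema7a was higher by 2.42 ± 0.32 in adult mCD than at day 10, a call lost at 1.92 without replicate 1 of day 10. Sema6b was at 13.6 and 12.02 CPM in adult mCD and at 0.463 CPM or less in UB organoids.

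Efna1, a ligand of Epha2 anchored in the membrane, was at 35.3 and 35.5 CPM at day 5, 19.7 and 12.7 CPM at day 10, 9.16 and 11.3 CPM at day 20, 24.4 and 24.5 CPM in CD organoids, and 185 and 175 CPM in adult mCD. It was higher in adult mCD than in every organoid library, and than at day 10 by 3.47 ± 0.15 (edgeR adjusted p = 1.75e-10). Efna1 lies beside Efna3 and Efna4 on chromosome 3, with 32756 and 10424 bases between neighbours. The 3 genes differed, since Efna3 was at 3.69 CPM or less in adult mCD and Efna4 was lower there, at 13.6 and 16.5 CPM, than in the organoids, at 26.1 to 36.1 CPM. Exons of Efna3 and Efna4 overlap those of a gene on the other strand, over 14.1% and 10.5% of their length, so their counts are less certain.

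Lower in adult mCD than at day 10 were 15 genes. Sema3d, a secreted semaphorin, was at 77.6 and 82.6 CPM at day 5, 165 and 153 CPM at day 10, 118 and 104 CPM at day 20, 75.0 and 75.3 CPM in CD organoids, and 10.3 and 10.4 CPM in adult mCD. It was lower than at day 10 by 3.94 ± 0.097 (edgeR adjusted p = 9.33e-13). Plxna3, which pairs with neuropilins, was at 130.0 and 133 CPM at day 5, 91.9 and 108 CPM at day 10, 85.2 and 80.4 CPM at day 20, 41.8 and 43.9 CPM in CD organoids, and 18.5 and 19.2 CPM in adult mCD. The adult libraries were the lowest and those of CD organoids the next lowest, with a log2 fold change of -2.41 ± 0.094 in adult mCD against day 10 (edgeR adjusted p = 5.32e-11). Sema4f, with 3 counts over both adult libraries against 1167 at day 10, gave a ratio of 192 with a 95% counting interval of 65.5 to 933. Sema3a was lower by 5.83 ± 0.26 (edgeR adjusted p = 1.29e-10) and Plxnc1 had a log2 fold change of -3.283 ± 0.336 (adjusted p = 6.39e-07), the latter being -3.92 without replicate 1 of adult mCD. Sema6c was at 7.18 and 10.6 CPM at day 10 and at 1.21 and 1.89 CPM in adult mCD, and the call of Sema5b was lost without replicate 2 of day 10, where its log2 fold change was -1.86. Efnb3 had a log2 fold change of -4.26, which was -5.14 without replicate 2 of adult mCD, and Epha8 had no counts in adult mCD, at least 5.24-fold lower than at day 10.

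Of the 27 genes called in no comparison, several were among the most abundant. Plxnb2 was at 520.1 and 462 CPM at day 10, 909 and 932 CPM in CD organoids and 1173 and 1090.2 CPM in adult mCD, and rose in CD organoids by 0.91 ± 0.077 on the log2 scale (edgeR adjusted p = 3.14e-07). Plxnb1, also a receptor of class 4 semaphorins, stayed between 201 and 300.3 CPM in all 10 libraries, and Plxna1 between 137 and 392 CPM. Sema4b was at 129 and 141 CPM at day 10, 181 and 184 CPM in CD organoids and 196 and 181 CPM in adult mCD. Sema3f lay between 111 and 215 CPM and Efnb1 between 55.8 and 95.3 CPM in all libraries. Efna5 lay between 37.4 and 83.4 CPM, Epha1 between 29.8 and 54.7 CPM, Ephb3 between 23.7 and 71.0 CPM. Plxna2 lay between 18.6 and 61.6 CPM, Sema3b between 56.4 and 131 CPM, Sema4d between 59.2 and 124 CPM and Sema6d between 3.35 and 21.4 CPM. Sema4c was at 88.8 and 98.4 CPM at day 10, 41.4 and 39.2 CPM in CD organoids and 25.02 and 24.05 CPM in adult mCD. Epha3 was at 1.26 CPM or less, and Epha10, Epha6 and Plxnb3 did not exceed 0.326 CPM.

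Other genes of the guidance pathways were taken from 2 lists, of 24 co-receptors and other ligands and of 32 intracellular effectors. In CD organoids against day 10, 3 of the 24 were called, 1 higher and 2 lower, and 4 of the 32, 1 higher and 3 lower, which is 12.5% of each list against 10.7% of all genes. Gpc1, a glypican that binds Slit proteins, measured 162 ± 15.2 CPM at day 10 (SD, n = 2) and 37.7 ± 0.0304 CPM in CD organoids, a fall of 2.10 ± 0.10 on the log2 scale (edgeR adjusted p = 1.11e-09). Dpysl5, of the family that carries semaphorin signals to microtubules, fell from 38.4 ± 4.80 to 1.03 ± 0.353 CPM, and Ngef, an exchange factor that acts below Eph receptors, rose from 1.74 ± 0.166 to 23.98 ± 0.225 CPM. Flrt3, a ligand of Unc5 receptors, rose from 9.91 ± 1.02 CPM at day 5 to 64.7 ± 6.38 at day 10 and 89.2 ± 0.109 at day 20, and was at 17.0 ± 3.80 CPM in CD organoids. Against day 20, 3 of the 24 (12.5%) and 5 of the 32 (15.6%) were called, where 9.46% of all genes were, among them Rnd3, whose product binds plexins, at 105 ± 10.1 against 15.8 ± 1.28 CPM in CD organoids, and Rras, at 11.4 ± 0.195 against 49.2 ± 1.36 CPM.

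In adult mCD against day 10, 13 of the 24 (54.2%) and 7 of the 32 (21.9%) were called, where 22.5% of all genes were, so that the share of effectors was near that of all genes. Rnd3 was higher, at 636 ± 30.2 CPM against 41.8 ± 4.99, as was the adhesion molecule L1cam, at 537 ± 46.0 against 104 ± 20.9 CPM. Kdr, a receptor of endothelial cells, was at 107 ± 4.01 against 0.531 ± 0.0223 CPM and Arhgef15, an Eph effector, at 26.1 ± 3.26 against 0.400 ± 0.0505 CPM. Rnd1 was at 38.4 ± 7.74 against 0.680 ± 0.121 CPM and Ngef at 65.1 ± 0.909 CPM. Lower in adult mCD were Ptk7, at 40.0 ± 3.06 against 343 ± 29.8 CPM, Dpysl2, at 9.63 ± 0.828 against 86.5 ± 15.0 CPM, Flrt2, at 16.4 ± 0.0050 against 118 ± 18.6 CPM, and Rgma, at 11.9 ± 0.676 against 50.1 ± 2.06 CPM. Between day 20 and day 5, 4 of the 24 (16.7%) and 5 of the 32 (15.6%) were called, where 8.61% of all genes were, among them Lrrc4, from 1.91 ± 0.765 to 21.3 ± 0.438 CPM, and Mical2, from 3.50 ± 0.0652 to 26.9 ± 1.00 CPM.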

How the data were processed

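RNA-seq of 10 libraries in 5 groups was analysed. In the paper's methods, the authors trimmed reads in Partek Flow, aligned them to mm10 (GENCODE M24) with STAR and counted them with Partek's E/M model, which can share reads between genes. The submitters' processing notes name FastQC 0.11.8, cutadapt 2.5, Trimmomatic 0.36 and edgeR 3.28.1. The kits differ between sources, being RNeasy and TruSeq in the labels but Direct-zol and KAPA stranded in the methods. The deposited table holds whole-number counts per gene, RPKM that the authors computed from them, and TMM values, a deposited signal scaled to a common total, used here in an alternative with limma only.

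All 10 libraries entered 1 quasi-likelihood fit of group means to the counts (edgeR 4.0.16, R 4.3.3), in which TMM factors ran from 0.792 to 1.12. Genes needed 10 counts in total, and log2 fold changes used a prior count of 1. Standard errors are approximate, being derived from the test statistic. CPM use the same factors, and 3 counts in a library, taken as the limit of detection, are 0.109 to 0.241 CPM. Limits and intervals cover counting error only, and the 95% intervals of ratios are exact binomial (Clopper-Pearson) ones on summed counts. Positions, exons and lengths are from GENCODE M21 on GRCm38. Simulated data were used to test this fit for CD organoids against day 10, where all 200 genes changed by 3 on the log2 scale were recovered among 23648 genes, with 0 false calls.

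Named with every library's value were genes called in at least 1 comparison with a mean of at least 20 CPM in some group. The highest gene of each family and genes of the other lists with a call and 20 CPM were named too, and further genes were chosen after their values were seen. The members and lists were chosen with earlier results of these data known. Alternatives changed the scaling, the tool (DESeq2 1.42.0, limma 3.58.1), the filter, the prior count, the threshold, the libraries in the fit and a block for the replicate number, and left out each library in turn. Python 3.11.15 with pandas 2.3.3 and numpy 2.4.6 was used for tables and matplotlib 3.10.9 for figures.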

Additional observations from a re-analysis of the deposited data

How the results depend on the processing

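The counts of called genes kept within 1.5 times of their value under most alternatives, and no fold change of a called gene reversed under any alternative run. With an adjusted p no higher than 0.05 and no limit on fold, more of the 67 genes passed, and the shares over all genes are those given above. The counts were 34 for day 10 against day 5, 36 for day 20 against day 10 and 44 for day 20 against day 5. They were 48, 46 and 53 for CD organoids against day 10, day 20 and adult mCD, and 53 for adult mCD against day 10. With more than 2-fold in place of 4-fold they were 13, 11 and 20 for the 3 comparisons of UB organoids. CD organoids had 32, 29 and 33 against day 10, day 20 and adult mCD, and adult mCD had 40 against day 10. Over all tested genes the 2-fold threshold gave 2026, 1950, 4336, 5168, 4523, 5999 and 9026 calls, in the same order. For day 20 against day 10, with 1 gene called, library totals alone, no filter, a prior count of 0.25 and the replicate block each gave 2. Leaving out single libraries gave 1 to 5 there, 2 to 3 for day 10 against day 5, 8 to 10 for day 20 against day 5, 18 to 22, 15 to 18 and 21 to 22 for CD organoids against day 10, day 20 and adult mCD, and 26 to 27 for adult mCD against day 10. The cause of these moves was not tested.

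Over the called genes and their alternatives, 1428 fold changes kept their call and 56 lost it. Calls were lost for Ephb1, Ntn3, Sema5b, Sema6b, Sema7a, Slit1, Slit2, Slit3, Unc5c and Unc5d, most of them at low counts. Whether libraries of the same replicate number share an origin is not stated in the labels. Their deviations correlated between -0.0753 and 0.0961 across groups over all genes. Over the guidance genes they correlated between -0.275 and 0.63, the highest being for day 5 and day 10. Ephb1, for example, had 14 and 128 counts at day 5 and 16 and 188 at day 10. The main fit did not pair libraries. The replicate block gave 2, 9, 22, 19, 22 and 27 calls in the comparisons other than day 20 against day 10, in the order used above, and of the calls it lost only that of Slit1 in CD organoids against adult mCD. Ranks by RPKM and by CPM per kb of merged exons shared 7 to 9 of the 10 highest genes. The 2 libraries of a group give little information on its own spread, and the lower totals of day 20, CD organoids and adult mCD raise their limit of detection.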
